A study of Mus musculus with 4 samples.

Results

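Solute carriers are the large group of membrane proteins, gathered in families that share the symbol stem Slc, that move amino acids, sugars, ions, nucleotides, vitamins and metabolites across the cell membrane and the membranes of mitochondria, Golgi and lysosomes. The genes described here are the expressed solute carrier genes of mouse oocytes: those whose symbol starts with Slc and a digit and whose level averaged 5 FPKM or more over the 4 libraries, without the zinc transporter families Slc30a and Slc39a and without Slc7a11. FPKM relates sequenced fragments to transcript length and library size, so levels of genes that differ in length can be set side by side. There were 79 such genes among 355 symbols of this stem and 23235 symbols in all. The rule left out 24 zinc transporter symbols and Slc7a11, and 251 other symbols lay under the mean of 5, of which 36 were listed at 0 in all 4 libraries. The level chose the members, so their levels are given as a description. Of the 79 symbols, 3 name no carrier: Slc4a1ap is an adaptor protein, Slc7a6os lies on the opposite strand of a carrier gene, and Slc9a3r1 is a scaffold protein of the membrane cytoskeleton.

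RNA was sequenced from mouse oocytes at both ends of their growth phase, with and without deletion of Dcaf13, which encodes a nucleolar protein needed for ribosome assembly. The growing deletion group held oocytes of mice of about 14 days with floxed Dcaf13 alleles and the Gdf9-Cre transgene (Dcaf13fl/fl;Gdf9-Cre), and the growing control group oocytes of the same age from mice with the floxed alleles and no Cre (Dcaf13fl/fl). The fully grown deletion and fully grown control groups held oocytes of the same genotypes from mice of about 23 days, 48 h after 5 IU of pregnant mare serum gonadotropin (PMSG), a hormone that drives follicle growth. All mice were on the C57B6 background, the Gdf9 promoter drives Cre in oocytes and not in the follicle cells around them, each library was made from 10 pooled oocytes, and each group had 1 library. With 1 library per group there is no replicate error and no test, and every difference below compares 2 libraries, not 2 conditions. Stage, age and hormone treatment cannot be told apart.

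A change is a difference in log2(FPKM + 1), which understates the change of genes with low levels. A gene counted as higher or lower if it reached 5 FPKM in at least 1 of the 2 libraries and differed by at least 1 on that scale; this is called the size rule below. Shares of all genes past the rule rest on this 5 FPKM minimum alone, while members also had to average 5 FPKM or more over the 4 libraries. FPKM is a share of each library's RNA, so less of a transcript per oocyte and more of all other RNA cannot be told apart. The files give no read depth, so no counting interval can be set on any value. The table's symbols and values run in different sort orders, and all values below follow the symbols put back into byte order, an inference from the values that was not checked with the submitters. For solute carriers this moves every symbol by 2 rows and decides their values: Slc6a9 averaged 63.0 FPKM this way and 0.0133 FPKM in the table as deposited.

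An oocyte grows inside the follicle while joined to granulosa cells by gap junctions, and takes up many substrates through those cells as well as through its own carriers. It relies on pyruvate and on mitochondria for energy and imports little glucose itself. The transporter encoded by Slc6a9 carries glycine, which serves the control of cell volume in mouse eggs and early embryos. Mitochondrial carriers of the Slc25a family link the cytosol to the matrix, and carriers of the Slc35 families bring nucleotide sugars and sulfate donors into the Golgi and the endoplasmic reticulum.

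The starts of the genes that passed the size rule in growing oocytes are shown first, since they make up 7 of the 8 members past that rule in a comparison of deletion with control. Of these 7 genes, 4 had an entry in the RefSeq promoter table used (assembly GRCm38.p6), whose window runs from 250 bases before to 50 bases after the start of the transcript. Capitals mark a match, on either strand, to the TATA box (TATAAA), the CCAAT box (CCAAT) or the core of the amino acid response element (TGATGNAA), a motif bound by Atf4 and its partners in many amino acid transporter genes. The sequences of Slc15a5 (chr6:138079867-138080166, minus strand) and Slc25a13 (chr6:6217124-6217423, minus strand), both lower in growing deletion oocytes, are followed by those of Slc35b2 (chr17:45563686-45563985, plus strand) and Slc38a8 (chr8:119501649-119501948, minus strand), both higher.
Slc15a5: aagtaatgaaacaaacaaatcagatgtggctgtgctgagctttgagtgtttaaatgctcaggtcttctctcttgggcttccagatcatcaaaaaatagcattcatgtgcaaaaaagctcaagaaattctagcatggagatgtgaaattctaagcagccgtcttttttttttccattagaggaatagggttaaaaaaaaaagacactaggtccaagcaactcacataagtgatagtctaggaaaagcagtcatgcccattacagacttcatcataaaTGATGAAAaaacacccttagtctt
Slc25a13: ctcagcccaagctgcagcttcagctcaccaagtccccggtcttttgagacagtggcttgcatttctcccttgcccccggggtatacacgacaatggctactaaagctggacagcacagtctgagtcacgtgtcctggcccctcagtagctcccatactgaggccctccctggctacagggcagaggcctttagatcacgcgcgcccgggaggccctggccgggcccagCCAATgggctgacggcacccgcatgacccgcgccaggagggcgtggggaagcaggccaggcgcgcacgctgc
Slc35b2: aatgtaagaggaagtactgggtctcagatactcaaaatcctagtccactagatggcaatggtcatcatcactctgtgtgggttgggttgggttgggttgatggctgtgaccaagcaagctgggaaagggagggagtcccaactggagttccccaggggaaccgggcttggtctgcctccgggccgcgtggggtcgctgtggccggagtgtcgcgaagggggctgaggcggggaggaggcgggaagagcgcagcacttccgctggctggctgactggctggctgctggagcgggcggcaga
Slc38a8: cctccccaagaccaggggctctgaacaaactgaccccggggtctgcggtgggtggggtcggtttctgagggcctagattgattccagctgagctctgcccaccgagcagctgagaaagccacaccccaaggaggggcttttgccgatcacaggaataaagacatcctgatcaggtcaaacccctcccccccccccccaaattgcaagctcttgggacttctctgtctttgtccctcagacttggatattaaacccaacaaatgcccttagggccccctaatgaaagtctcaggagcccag

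The 4 windows differed in base composition. The Slc15a5 window held 1 CpG and 36.7% G and C, with 1 TGATGNAA match, against 17 CpG and 65% in the Slc25a13 window, with 1 CCAAT match. The Slc35b2 window held 14 CpG and 62% G and C, the Slc38a8 window 5 CpG and 56.7%, and neither had a match. Over all 32851 promoter windows, 13.6% held TATAAA, 37.4% CCAAT and 3.97% TGATGNAA. Of 81 windows of 61 members with an entry, 6 held TATAAA, 21 held CCAAT and 4 held TGATGNAA; among the 19 windows of the amino acid carrier families the counts were 0, 1 and 2. The E-box letters CANNTG stood in 58 of the 81 member windows, against 72.3% of all windows. The member windows had a median of 16 CpG and 60.7% G and C, against medians of 7 CpG and 52.7% over all windows. Members were chosen by their level and the windows of all genes were not. Neither these medians nor the motif shares thus show a trait of solute carriers. A match of letters is no evidence of binding, and the windows of Slc6a15, Slc7a2 and Slc48a1 are not shown.

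The marker levels were mainly those of oocytes. All 15 oocyte markers averaged 1 FPKM or more, and their summed level ran between 27602 and 29589 FPKM over the 4 libraries. Of 12 granulosa and cumulus markers 5 averaged 1 FPKM or more, and their sums were 17.9 FPKM in the growing deletion library, 35.7 in the growing control, 31.1 in the fully grown deletion and 28.9 in the fully grown control. Cyp19a1, the aromatase of granulosa cells, made up 7.75, 17.7, 16.8 and 19.0 FPKM of these 4 sums. In the same order of libraries, Nr5a2 stood at 4.88, 5.87, 3.62 and 3.90 FPKM and Inha at 2.16, 6.53, 4.99 and 2.40 FPKM. Amh, a defining granulosa marker, was listed at 0 in both fully grown libraries. It reached 0.0990 and 0.213 FPKM in the growing deletion and growing control libraries. None of 7 theca and stroma markers averaged 1 FPKM. Of 4 blood markers, the hemoglobin genes Hbb-b1 and Hba-a1 were listed at 0 and the leukocyte gene Ptprc averaged 0.00405 FPKM, while the macrophage gene Cd68 stood at 3.55 and 1.78 FPKM in growing deletion and growing control oocytes and at 1.44 and 1.06 FPKM in fully grown deletion and fully grown control oocytes. The part of these markers in the results below was not tested. Dcaf13 itself stood at 38.9 FPKM in growing deletion oocytes, against 96.1 FPKM in growing control oocytes. It stood at 64.0 FPKM in fully grown deletion oocytes, against 160.2 FPKM in fully grown control oocytes. The levels in deletion oocytes were 40.5% and 40.0% of those in controls, growing and fully grown. The labels do not say which part of the gene is floxed, so these values may include exons that are not deleted.

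The 79 genes together held 2366 FPKM in growing deletion oocytes, against 2137 FPKM in growing control oocytes. They held 2134 FPKM in fully grown deletion oocytes, against 1954 FPKM in fully grown control oocytes. These sums were 0.355% and 0.329% of the summed FPKM of the growing deletion and growing control libraries, and 0.315% and 0.292% of those of the fully grown deletion and fully grown control libraries. The sum was thus higher in the deletion library at each stage. Levels were uneven among members: 3 averaged 100 FPKM or more, 10 at least 50 and 27 at least 20, while 33 lay under 10. Of the 79, 64 reached 5 FPKM in every library. The mean of 7 members (Slc12a2, Slc18a2, Slc19a1, Slc35a5, Slc35c1, Slc6a7 and Slc7a7) would be under 5 if 1 library were left out. Just inside the threshold lay Slc18a2, the vesicular monoamine transporter, with a mean of 5.02 FPKM, Slc35a5 with 5.10 and Slc6a7, a proline transporter, with 5.23. Just outside lay the anion exchanger Slc4a2 with 4.67 FPKM, the large neutral amino acid transporter Slc7a5 with 4.57 and Slc12a8 with 4.55.

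**Figure D1:**
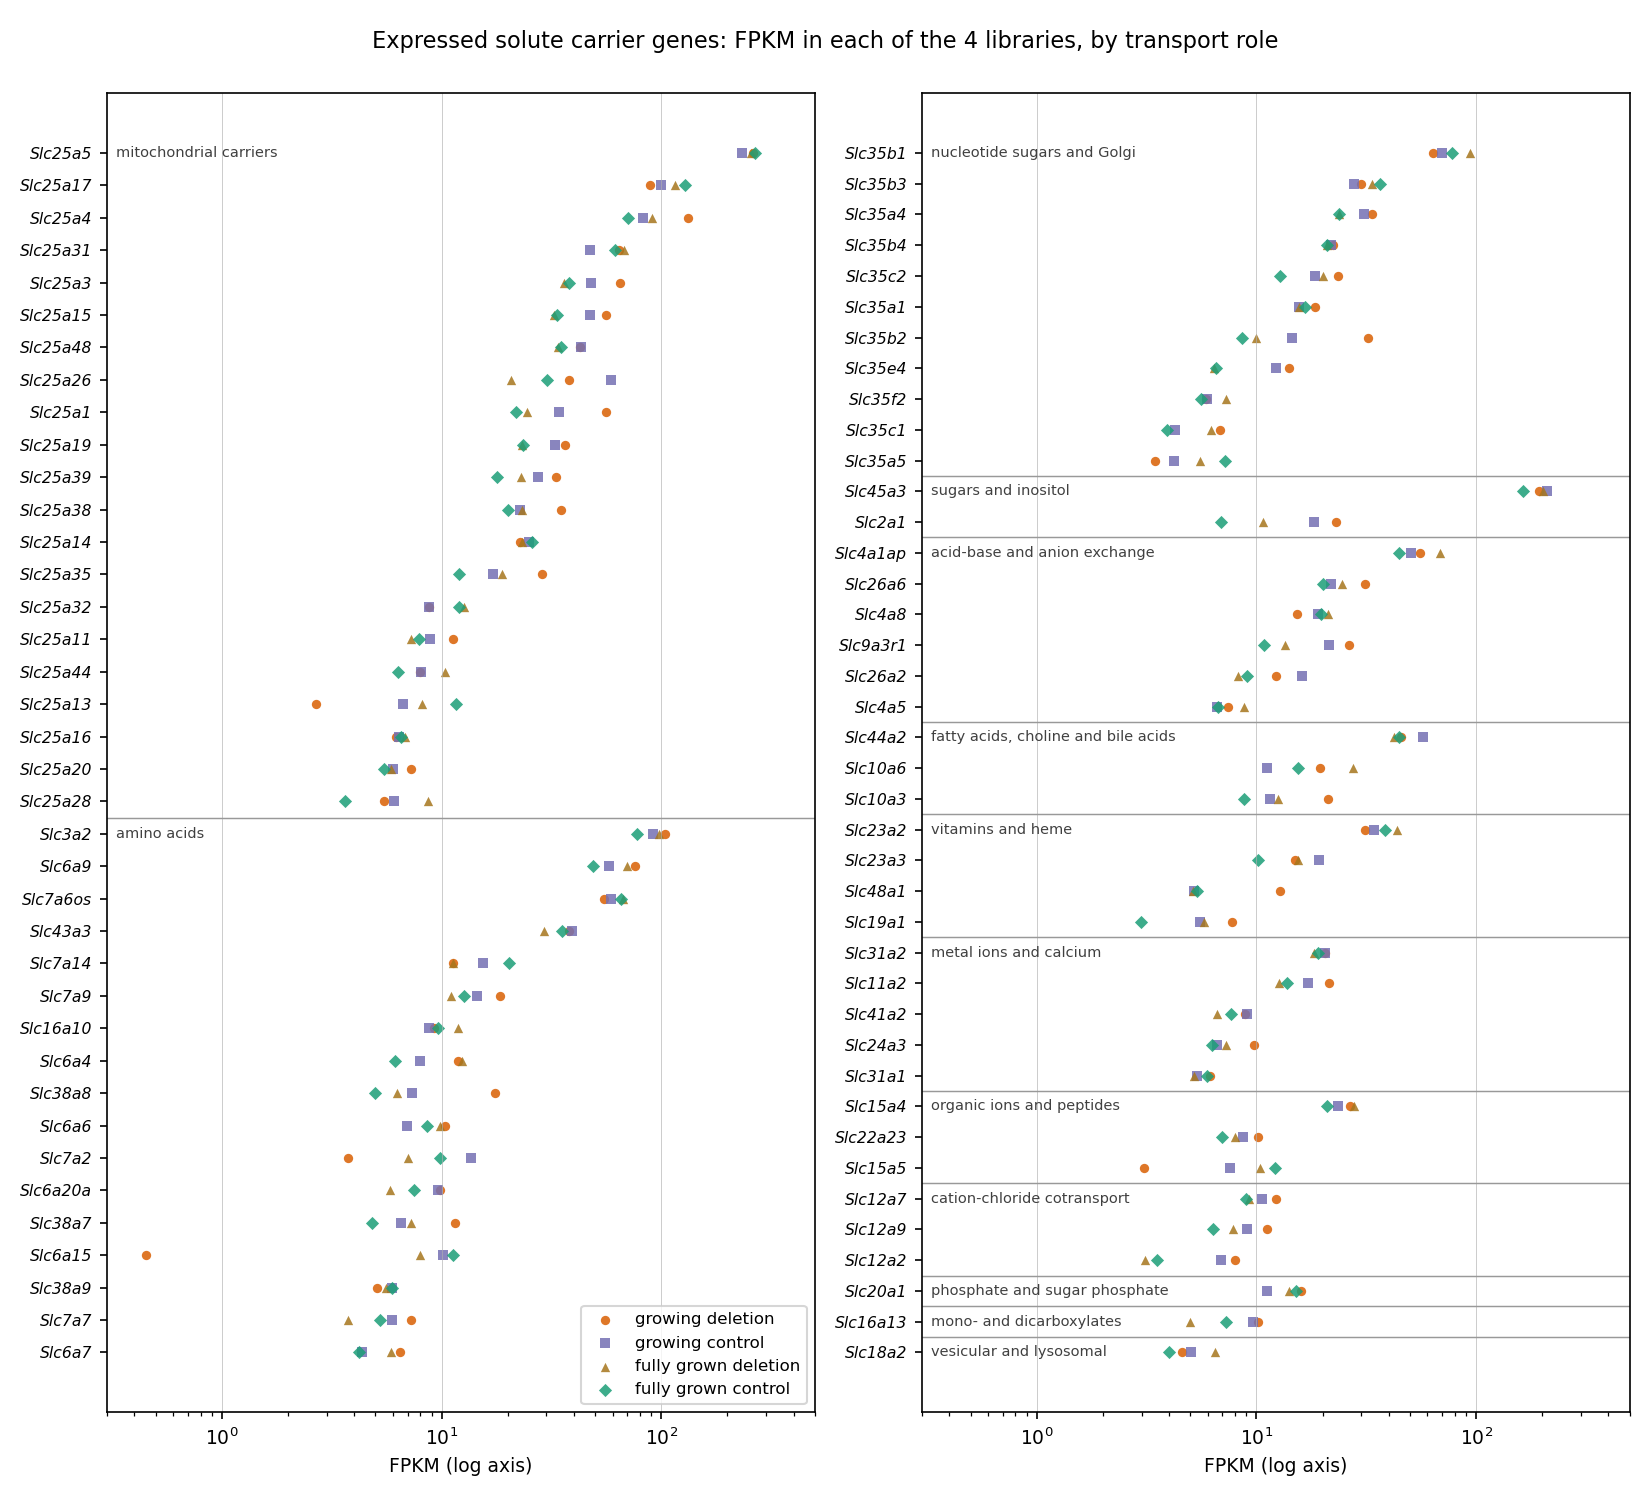
FPKM (log axis) of 78 of the 79 solute carrier genes in each of the 4 libraries, grouped by transport role; each point is 1 library and its colour and shape give the group. Slc25a5 is the highest gene, at 233 to 266 FPKM, and the point farthest left is Slc6a15 in the growing deletion library, at 0.452 FPKM.

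Roles were assigned by family stem, so Slc7a6os and Slc6a4, the serotonin transporter, stand among the amino acid carriers and Slc4a1ap and Slc9a3r1 among the acid-base carriers. The peroxisomal carrier Slc25a17 likewise stands among the mitochondrial carriers and is part of their sums. Mitochondrial carriers were the largest role, with 21 of the 44 Slc25a symbols in the table passing the threshold. Their summed level was 1011 FPKM in growing deletion oocytes, against 871 FPKM in growing control oocytes, and 849.8 FPKM in fully grown deletion oocytes, against 837 FPKM in fully grown control oocytes. Amino acid carriers followed with 17 of 63 symbols, 396 FPKM in growing deletion against 365 FPKM in growing control oocytes, and 369.9 FPKM in fully grown deletion against 338 FPKM in fully grown control oocytes. The nucleotide sugar and Golgi carriers, 11 of 24 symbols, summed to 254 and 226 FPKM in growing deletion and growing control oocytes, and to 243 and 220.0 FPKM in fully grown deletion and fully grown control oocytes.

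The most abundant member was Slc25a5, an ADP/ATP carrier of the inner mitochondrial membrane, with 262 FPKM in growing deletion oocytes and 233 in growing control oocytes, and 257 FPKM in fully grown deletion oocytes and 266 in fully grown control oocytes. Its paralogs were also high. Slc25a4 stood at 133 and 82.6 FPKM in growing deletion and growing control oocytes and at 90.4 and 70.5 FPKM in fully grown deletion and fully grown control oocytes. Slc25a31, the ADP/ATP carrier known from germ cells, stood at 64.4 and 47.4 FPKM in growing deletion and growing control oocytes and at 67.5 and 61.3 FPKM in fully grown deletion and fully grown control oocytes. These genes resemble each other in sequence, and how reads with several matches were counted is not given in the sources used here, so the split of reads among them is uncertain. Slc25a17, a peroxisomal carrier of coenzyme A and adenine nucleotides, stood at 88.9 and 99.3 FPKM in growing deletion and growing control oocytes and at 116 and 128 FPKM in fully grown deletion and fully grown control oocytes. Slc25a3, the mitochondrial phosphate carrier, stood at 64.7 and 48.0 FPKM in growing deletion and growing control oocytes and at 36.0 and 38.1 FPKM in fully grown deletion and fully grown control oocytes. None of these carriers passed the size rule against control at either stage.

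Outside mitochondria the most abundant member was Slc45a3, a member of a sugar carrier family first known from prostate, with 192 FPKM in growing deletion oocytes, against 209.7 FPKM in growing control oocytes, and 201 FPKM in fully grown deletion oocytes, against 163 FPKM in fully grown control oocytes. Slc3a2, the heavy chain that brings several amino acid exchangers of the Slc7a family to the membrane, stood at 104 and 91.9 FPKM in growing deletion and growing control oocytes and at 97.7 and 77.6 FPKM in fully grown deletion and fully grown control oocytes. Among its light chains, Slc7a7, a member, averaged 5.56 FPKM, and Slc7a5 and Slc7a6, both under the threshold, averaged 4.57 and 1.14 FPKM. Slc35b1, a carrier of ATP into the endoplasmic reticulum, stood at 63.5 and 70.0 FPKM in the growing deletion and growing control libraries and at 93.6 and 77.4 FPKM in the fully grown deletion and fully grown control libraries. The glycine carrier Slc6a9 stood at 75.7 FPKM in growing deletion against 57.8 FPKM in growing control oocytes, and at 69.6 FPKM in fully grown deletion against 49.0 FPKM in fully grown control oocytes. It was the highest amino acid carrier after the heavy chain. Slc6a9 overlaps Ccdc24 on the opposite strand. Of the members, 8 overlap another gene by their whole spans, and for 7 of these that gene lies on the opposite strand. Reads from shared bases cannot be told apart where strand was not used. Slc7a6os, Slc4a1ap and the choline transporter-like Slc44a2 completed the 12 most abundant, with means of 61.7, 54.9 and 47.5 FPKM.

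Among the other roles the highest members were as follows. Slc23a2, which takes up ascorbate, averaged 36.9 FPKM and led the vitamin carriers. Slc15a4, a lysosomal histidine and peptide carrier, averaged 24.7 FPKM and led the organic ion and peptide carriers. Slc31a2, a copper carrier, averaged 19.6 FPKM and led the metal carriers. Slc20a1, a sodium-coupled phosphate carrier, was alone in its role, with 15.9 and 11.1 FPKM in the growing deletion and growing control libraries and 14.0 and 15.1 FPKM in the fully grown deletion and fully grown control libraries. Slc12a7, a potassium-chloride cotransporter, averaged 10.2 FPKM and led its role. Slc16a13 was alone among the monocarboxylate carriers, with 10.1 and 9.61 FPKM in growing deletion and growing control oocytes and 4.98 and 7.24 FPKM in fully grown deletion and fully grown control oocytes.

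A list of 17 carriers known from oocyte and early embryo physiology was set beside these levels. All 17 were in the table, 6 were members and 11 lay under the mean of 5 FPKM. Among the members were Slc6a9, Slc3a2, the anion exchanger Slc26a6 (24.4 FPKM on average), the glucose carrier Slc2a1 (14.7 FPKM) and the taurine carrier Slc6a6 (8.95 FPKM). Of the monocarboxylate carriers that can bring in pyruvate and lactate, Slc16a1 averaged 3.59 FPKM, Slc16a7 0.55 and Slc16a3 0.209. Of the glutamine and neutral amino acid carriers, Slc38a2 averaged 0.0834 FPKM, Slc38a3 0.0671 and Slc1a5 0.0305, and the glucose carrier Slc2a3 averaged 0.359 FPKM. Outside this list, other members of the Slc38a and Slc16a families lay higher. The glutamine carrier Slc38a8 averaged 9.01 FPKM, Slc38a7 7.55 and Slc38a9 5.64. Slc16a10, placed among the amino acid carriers, averaged 9.86 FPKM and Slc16a13 of the monocarboxylate family 7.99 FPKM.

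In growing oocytes, 7 of the 78 members at the minimum passed the size rule against control (8.97%), 3 higher and 4 lower, against 5.13% of all 8010 genes at the minimum (2.62% higher and 2.51% lower). The lower members belong to families that carry amino acids, peptides and, into mitochondria, glutamate, and the higher ones carry heme, glutamine and the sulfate donor of the Golgi. The median change of the 78 members was 0.18, against 0.08 over all genes, and 52 of them (66.7%) lay above 0, against 58.5% of all genes. The mean of 5 FPKM over the 4 libraries was asked of members and not of all genes, so these shares have unlike bases. Solute carrier symbols past the size rule but under that mean are given at the end. Changes ran from -2.93 to 1.15, and 59 members lay within 0.5 of control. The higher share of members past the rule was absent at a minimum of 20 FPKM, where 1 of 36 members passed (2.78%), against 3.08% of all genes.

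Slc6a15 (chr10:102830442-102882013, mm9), a sodium-coupled carrier of branched-chain amino acids and proline, stood at 0.452 FPKM in growing deletion oocytes, against 10.1 FPKM in growing control oocytes. It stood at 7.97 FPKM in fully grown deletion oocytes, against 11.3 FPKM in fully grown control oocytes. The growing deletion library thus stood apart from the other three, with a change of -2.93 against its control, and the fully grown change was -0.45. Slc7a2 (chr8:41947721-42007424), a carrier of arginine and other cationic amino acids, stood at 3.77 FPKM in growing deletion oocytes, against 13.6 FPKM in growing control oocytes, a change of -1.61. It stood at 7.06 FPKM in fully grown deletion oocytes, against 9.82 FPKM in fully grown control oocytes, a change of -0.43. Both genes were lowest in the growing deletion library and highest in a control library.

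The other lower members were smaller in change. Slc15a5 (chr6:137932111-138028437), a member of the peptide and histidine carrier family whose promoter window is shown above, stood at 3.07 FPKM in growing deletion oocytes, against 7.59 FPKM in growing control oocytes, a change of -1.08. It stood at 10.4 FPKM in fully grown deletion oocytes, against 12.1 FPKM in fully grown control oocytes, a change of -0.20. Slc25a13 (chr6:5991218-6167173), a mitochondrial exchanger of aspartate for glutamate, stood at 2.69 FPKM in growing deletion oocytes, against 6.64 FPKM in growing control oocytes, a change of -1.05. It stood at 8.18 FPKM in fully grown deletion oocytes, against 11.6 FPKM in fully grown control oocytes, a change of -0.46. In both genes the growing deletion library was the lowest and the fully grown control library the highest of the 4.

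Slc48a1 (chr15:97614796-97623123), which moves heme out of endosomes and lysosomes, stood at 12.7 FPKM in growing deletion oocytes, against 5.20 FPKM in growing control oocytes, a change of 1.15. It stood at 5.12 FPKM in fully grown deletion oocytes, against 5.36 FPKM in fully grown control oocytes, a change of -0.06. The other three libraries lay close together, between 5.12 and 5.36 FPKM. Slc48a1 overlaps Hdac7 on the opposite strand, and the handling of strand is not given in the sources used here. Reads from bases that both genes share may thus not be told apart. Slc38a8 (chr8:122003503-122025598), a glutamine carrier of the sodium-coupled neutral amino acid family, stood at 17.5 FPKM in growing deletion oocytes, against 7.35 FPKM in growing control oocytes, a change of 1.14. It stood at 6.26 FPKM in fully grown deletion oocytes, against 4.98 FPKM in fully grown control oocytes, a change of 0.28. Slc35b2 (chr17:45701101-45704618), which brings the sulfate donor PAPS into the Golgi, stood at 32.2 FPKM in growing deletion oocytes, against 14.5 FPKM in growing control oocytes, a change of 1.09. It stood at 9.93 FPKM in fully grown deletion oocytes, against 8.60 FPKM in fully grown control oocytes, a change of 0.19. Slc35b3, another PAPS carrier among the members, stood at 29.8 and 27.9 FPKM in growing deletion and growing control oocytes, a change of 0.09.

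**Figure D2:**
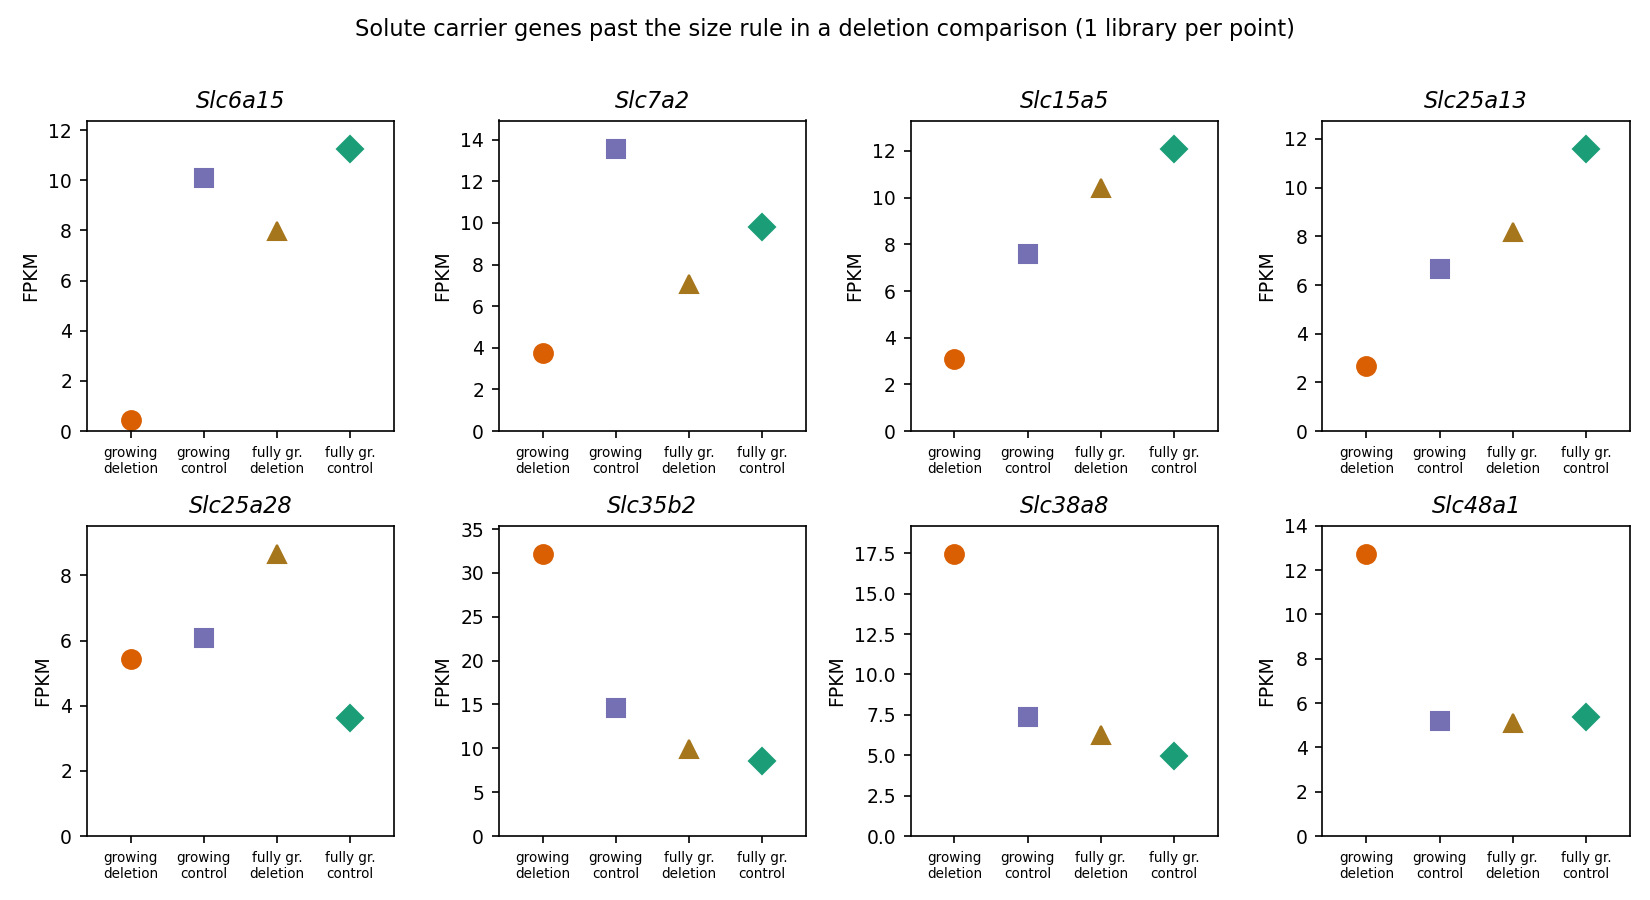
FPKM in each of the 4 libraries for the 8 solute carrier genes past the size rule in a comparison of deletion with control; each point is 1 library and each axis starts at 0. In Slc6a15 the growing deletion library, at 0.452 FPKM, stands below the other three, and in Slc25a28 the fully grown deletion library, at 8.66 FPKM, is the highest.

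The growing deletion library was the highest or the lowest of the 4 in all 7 genes. These genes were chosen by a large difference of that library from its control, which favours this, so it is no result. That library was also often at an extreme among all members and all genes, which were not chosen in this way. It was the highest library for 42 of 79 members (53.2%), against 38.7% of all 7380 genes with a mean of 5 FPKM or more. It was the lowest for 14 members (17.7%), against 27.2% of all genes. The fully grown control library was the lowest for 34 members (43.0%), against 32.6% of all genes.

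The changes followed base composition. Across the 78 members, the change in growing oocytes correlated with the G and C content of the longest transcript with a Spearman rho of 0.50, against 0.36 over the 7934 genes that have a value; in fully grown oocytes rho was 0.53 for the members and 0.39 over all genes. These are correlations across genes of the same libraries, which are not independent replicates. The higher members Slc48a1, Slc38a8 and Slc35b2 had transcripts with 56.1%, 54.6% and 59.8% G and C, and the lower members Slc6a15, Slc7a2, Slc15a5 and Slc25a13 had 42.3%, 43.9%, 43.6% and 47.0%. The median member had 50.9%. With the trend of G and C content and length removed, 3 of the 7 stayed past the size rule (3.85% of members, against 4.15% of all genes), Slc6a15 at -2.76, Slc7a2 at -1.45 and Slc38a8 at 1.02. Slc48a1 then stood at 0.98, Slc25a13 at -0.97, Slc15a5 at -0.94 and Slc35b2 at 0.79. The part of base composition in these differences beyond that value was not tested.

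**Figure D3:**
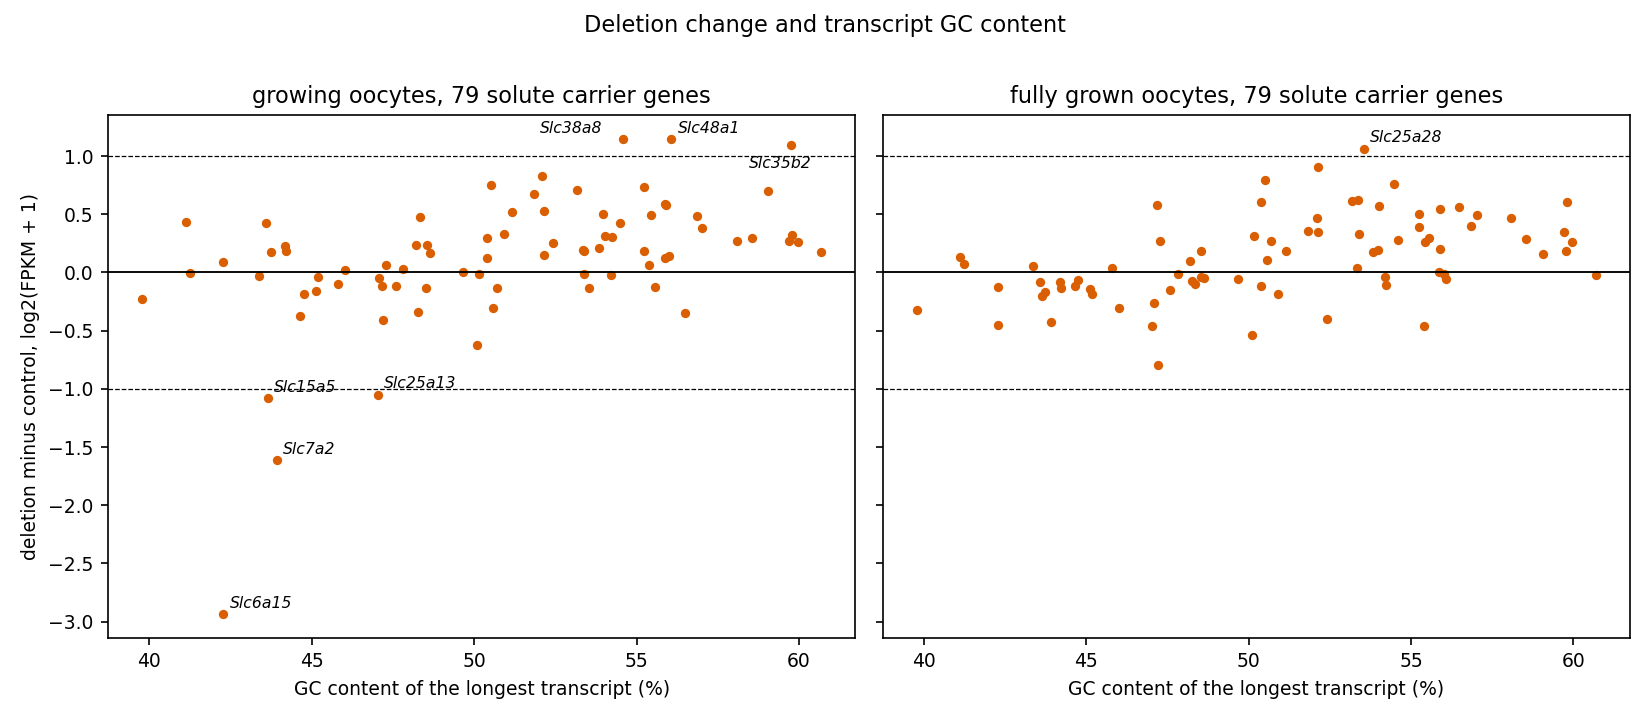
Change between deletion and control (log2(FPKM + 1)) against the G and C content of the longest transcript (%), for growing oocytes on the left and fully grown oocytes on the right; each point is 1 solute carrier gene and dashed lines mark changes of 1 and -1. The named lower genes lie at 42.3% to 47.0% and the named higher genes of growing oocytes at 54.6% to 59.8%.

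In fully grown oocytes, 1 of the 78 members at the minimum passed the size rule (1.28%), against 2.17% of all 7413 genes. It was higher, as were 1.08% of all genes, and no member was lower, against 1.09% of all genes. The median change was 0.10, against 0.04 over all genes, and 45 members (57.7%) lay above 0, against 55% of all genes. Changes ran from -0.80 to 1.06, and 63 members lay within 0.5 of control. Slc25a28 (chr19:43738292-43749371), a mitochondrial iron importer, stood at 8.66 FPKM in fully grown deletion oocytes, against 3.62 FPKM in fully grown control oocytes, a change of 1.06. It stood at 5.44 FPKM in growing deletion oocytes, against 6.08 FPKM in growing control oocytes, a change of -0.14. With the trend of G and C content and length removed the fully grown change was 0.93, under the size rule. The largest change below control was that of Slc7a14, a lysosomal member of the cationic amino acid family, with 11.2 FPKM in fully grown deletion oocytes, against 20.2 FPKM in fully grown control oocytes, a change of -0.80. In growing oocytes it stood at 11.3 FPKM in deletion and 15.4 FPKM in control oocytes, a change of -0.41.

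At both stages, 0 of 77 members passed the size rule against control, against 43 of all 7188 genes (0.598%), a share too small to be seen among 77 genes. Of 77 members at the minimum in both comparisons, 33 lay above control and 14 below control at both stages, so 47 (61.0%) lay on the same side, against 67% of all 7188 genes. Across the 77 members the changes at the 2 stages, which rest on different libraries, correlated with a Pearson r of 0.46 and a Spearman rho of 0.45; this is across genes, which are not independent. The deletion change differed by 1 or more between the stages for 4 members (5.19%), against 2.98% of all genes. Fully grown minus growing, the difference was 2.48 for Slc6a15, 1.20 for Slc25a28, 1.19 for Slc7a2 and -1.20 for Slc48a1. With 1 library per group this difference could not be tested.

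**Figure D4:**
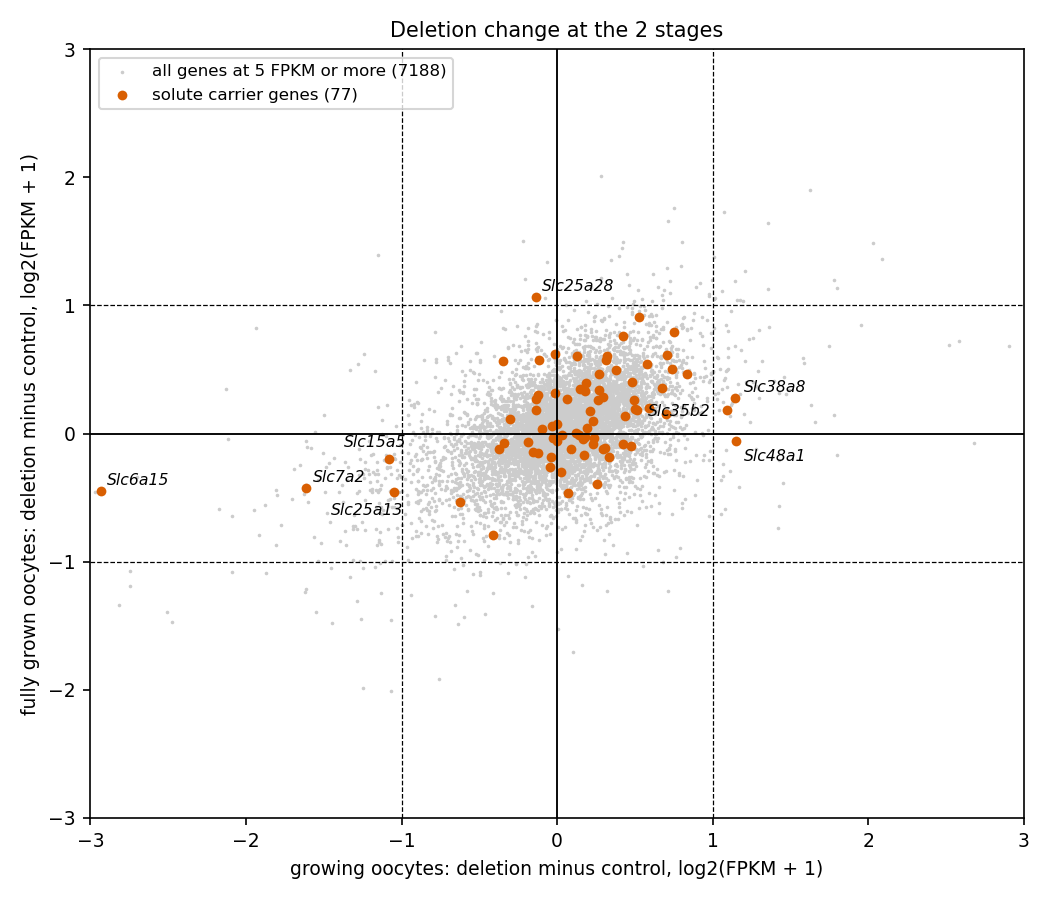
Change between deletion and control in growing oocytes (horizontal) and in fully grown oocytes (vertical), both in log2(FPKM + 1), for the 77 solute carrier genes and all 7188 genes at 5 FPKM or more in both comparisons; dashed lines mark changes of 1 and -1, and 10 genes, none of them a solute carrier, lie outside the axes. The 7 solute carrier genes past a vertical dashed line lie between -0.46 and 0.28 on the vertical axis, and Slc25a28, at 1.06, is the solute carrier gene past the upper dashed line.

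A lower bound of 0.5 was then applied at both stages, and the genes it named were chosen after their values were seen. Above control by at least 0.5 at both stages were 5 members (6.49%), against 3.03% of all genes, and below control by as much was 1 member (1.30%), against 2.60%. Slc10a6, a carrier of steroid sulfates, stood at 19.5 FPKM in growing deletion oocytes, against 11.2 FPKM in growing control oocytes, and at 27.6 FPKM in fully grown deletion oocytes, against 15.5 FPKM in fully grown control oocytes, with changes of 0.75 and 0.79. The serotonin transporter Slc6a4 stood at 11.9 FPKM in growing deletion against 7.95 FPKM in growing control oocytes and at 12.4 FPKM in fully grown deletion against 6.15 FPKM in fully grown control oocytes, with changes of 0.53 and 0.91. In both genes the deletion libraries lay above both control libraries. The other three were the lysosomal glutamine carrier Slc38a7, the mitochondrial carrier Slc25a35 and the GDP-fucose carrier Slc35c1, with changes of 0.74, 0.71 and 0.58 in growing oocytes and of 0.51, 0.62 and 0.54 in fully grown oocytes. Slc35c1 stood at 6.84 and 6.19 FPKM in the growing and fully grown deletion libraries, against 4.26 and 3.94 FPKM in their controls. It thus reached the mean of 5 FPKM only through the deletion libraries, so its place among these genes is no result. That mean was not asked of all genes, so the shares have unlike bases. Slc25a35 overlaps Rangrf on the opposite strand. The member below control was Slc25a26, which brings S-adenosylmethionine into mitochondria, with 37.9 FPKM in growing deletion oocytes, against 59.0 FPKM in growing control oocytes, and 20.6 FPKM in fully grown deletion oocytes, against 30.3 FPKM in fully grown control oocytes. Its changes were -0.62 and -0.53, and it overlaps Lrig1 on the opposite strand.

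By role, the changes in growing oocytes lay on both sides of control in most groups. Of the mitochondrial carriers 12 of 21 lay above control in growing oocytes and 11 in fully grown oocytes. Of the amino acid carriers 11 of 17 lay above control in growing oocytes and 9 in fully grown oocytes, and 3 of the 17 passed the size rule in growing oocytes (17.6%, against 8.97% of all members and 5.13% of all genes), Slc38a8 higher and Slc6a15 and Slc7a2 lower. Of the nucleotide sugar and Golgi carriers 8 of 11 lay above control in growing oocytes and 6 in fully grown oocytes. Of the 7 acid-base carriers 5 lay above control in growing oocytes and 6 in fully grown oocytes, with none past the size rule; Slc4a1ap had the largest fully grown change among them, at 68.8 FPKM in deletion and 44.7 FPKM in control oocytes, a change of 0.61. Of the 5 metal carriers 4 lay above control in growing oocytes and 1 in fully grown oocytes; Slc24a3, a sodium-calcium-potassium exchanger, had the largest growing change, at 9.76 FPKM in deletion and 6.61 FPKM in control oocytes, a change of 0.50. Slc19a1, the reduced folate carrier, had the largest fully grown change of the vitamin and heme carriers, at 5.75 FPKM in deletion and 2.99 FPKM in control oocytes, a change of 0.76.

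Slc25a32, a carrier of folate into mitochondria, is the neighbour of the deleted gene. It lies on the minus strand at chr15:38925737-38944262, 157 bases from the start of Dcaf13 at chr15:38944420-38978401 (mm9), and both are read away from the gap between them. It stood at 8.75 FPKM in growing deletion oocytes, against 8.77 FPKM in growing control oocytes, and at 12.7 FPKM in fully grown deletion oocytes, against 12.02 FPKM in fully grown control oocytes. Its changes were -0.00 and 0.07, beside the lower Dcaf13 levels of deletion oocytes given above.

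Growth was compared within each genotype, again with the mean of 5 FPKM asked of members and not of all genes. In deletion oocytes 10 of 79 members passed the size rule between the fully grown and the growing library (12.7%), 3 higher and 7 lower when fully grown, against 11.4% of all 7957 genes (2.7% higher and 8.75% lower). In control oocytes 1 of 77 members passed it (1.30%), and it was lower, against 4.18% of all 7661 genes (1.11% higher and 3.07% lower). The median changes were -0.17 in deletion oocytes and -0.18 in control oocytes, against -0.07 and -0.06 over all genes. Above 0 lay 29 members (36.7%) in deletion oocytes, against 44.1% of all genes, and 24 (31.2%) in control oocytes, against 43.9% of all genes.

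The growing deletion library enters both the comparison with its control and the growth of deletion oocytes, so these sets of changes are not independent and are given side by side. Fully grown against growing deletion oocytes, Slc6a15 was higher by 2.63, Slc15a5 by 1.49 and Slc25a13 by 1.31, and in control oocytes the same genes had growth changes of 0.14, 0.61 and 0.72. Slc35b2 had a growth change of -1.60 in deletion and -0.70 in control oocytes, Slc38a8 of -1.35 and -0.48, and Slc48a1 of -1.17 and 0.04. Slc25a1, the mitochondrial citrate carrier that supplies cytosolic acetyl-CoA, stood at 24.5 FPKM in fully grown deletion oocytes, against 56.0 FPKM in growing deletion oocytes, a change of -1.16. In control oocytes it stood at 21.9 FPKM when fully grown, against 34.1 FPKM when growing, a change of -0.62. Slc12a2, the sodium-potassium-chloride cotransporter, stood at 3.12 FPKM in fully grown deletion oocytes, against 8.003 FPKM in growing deletion oocytes, a change of -1.13. In control oocytes it stood at 3.52 FPKM when fully grown, against 6.93 FPKM when growing, a change of -0.81. Slc12a2 reached the mean of 5 FPKM only through the growing libraries, so its place among the lower members is no result.

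Slc2a1 (chr4:118781350-118809934), the facilitative glucose carrier of the cell membrane, was the member past the size rule in both genotypes. It stood at 10.7 FPKM in fully grown deletion oocytes, against 22.9 FPKM in growing deletion oocytes, a change of -1.03. It stood at 6.89 FPKM in fully grown control oocytes, against 18.2 FPKM in growing control oocytes, a change of -1.28. Both fully grown libraries lay below both growing libraries. With the libraries rescaled by the median ratio of their genes, the change in deletion oocytes was -0.94, and with the trend of G and C content and length removed it was -0.85, both under the size rule, while in control oocytes it stayed past it at -1.21 and -1.07. Slc35e4, outside the rule for named genes, had a change of -1.02 in deletion and -0.82 in control oocytes. With the trend removed, Slc25a1 stood at -0.86, Slc48a1 at -0.93 and Slc35e4 at -0.59 in deletion oocytes, and under the rescaling Slc35e4 stood at -0.94. The members' growth changes correlated with G and C content with a rho of -0.45 in deletion and -0.56 in control oocytes, against -0.23 and -0.30 over all genes.

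**Figure D5:**
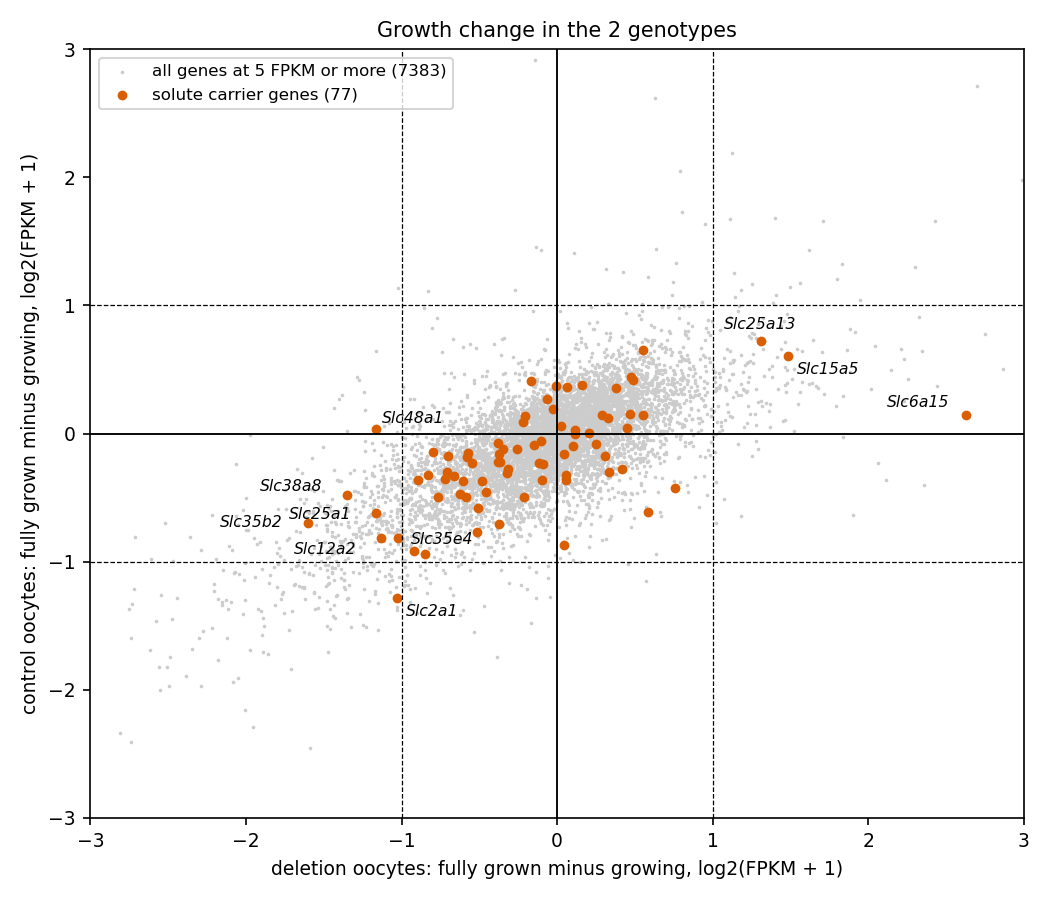
Change between fully grown and growing oocytes in deletion oocytes (horizontal) and in control oocytes (vertical), both in log2(FPKM + 1), for the 77 solute carrier genes and all 7383 genes at 5 FPKM or more in both comparisons; dashed lines mark changes of 1 and -1, and 22 genes, none of them a solute carrier, lie outside the axes. Slc2a1 lies past -1 on both axes, and Slc6a15 lies at 2.63 in deletion oocytes and 0.14 in control oocytes.

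The 2 growth comparisons share no library. Of 77 members at the minimum in both, 17 were higher and 41 lower when fully grown in both genotypes, so 58 (75.3%) lay on the same side, against 73.9% of all 7383 genes. Across these members the growth changes correlated with a Pearson r of 0.61 and a Spearman rho of 0.63, across genes. Slc9a3r1 stood at 13.5 FPKM in fully grown deletion against 26.4 FPKM in growing deletion oocytes, and at 10.8 FPKM in fully grown control against 21.3 FPKM in growing control oocytes, changes of -0.92 and -0.91. Slc35a5, whose transcript at 39.8% had the least G and C of all members, had growth changes of 0.56 in deletion oocytes and 0.65 in control oocytes.

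A list of 61 genes whose products work beside the carriers (the sodium pump and the proton pump, which make the gradients carriers use, carrier chaperones and kinases, amino acid sensors, pyruvate carriers and gap junctions among them) was set beside the members. Of these, 56 were in the table. In growing oocytes 2 of 38 at the minimum passed the size rule (5.26%), 1 higher and 1 lower, which is near the 5.13% of all genes. The lower one was Nedd4l, a ubiquitin ligase that takes carriers and channels off the membrane, which stood at 2.92 FPKM in growing deletion oocytes, against 13.8 FPKM in growing control oocytes, a change of -1.92. Nedd4l stood at 13.8 FPKM in fully grown deletion oocytes, against 24.6 FPKM in fully grown control oocytes, a change of -0.79. None of 37 passed it in fully grown oocytes, against 2.17% of all genes. The list's median changes were 0.06 in growing and 0.11 in fully grown oocytes, beside 0.08 and 0.04 over all genes.

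During growth of deletion oocytes 4 of 39 list genes passed the size rule (10.3%, against 11.4% of all genes), with Nedd4l higher by 1.92 and Stk39, a kinase of the cation-chloride cotransporters, by 1.50 when fully grown, and Atp6ap1, a proton pump accessory subunit, at -1.15 and Rptor, a subunit of the amino acid sensing kinase complex, at -1.03. None of 36 passed it in control oocytes, against 4.18% of all genes. The 5 most abundant of the list were the proton pump subunits Atp6v0c, Atp6v1e1, Atp6v1g1 and Atp6v1f and the oocyte gap junction protein Gja4, with means of 474, 329.8, 326, 298 and 433 FPKM. The most abundant, Atp6v0c, stood at 543 and 528 FPKM in growing deletion and growing control oocytes and at 462 and 365 FPKM in fully grown deletion and fully grown control oocytes. These levels were above that of Slc25a5, the highest member, in every library.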

How the data were processed

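Polyadenylated RNA was turned into cDNA with Smart-seq2 and into libraries with a Tn5 kit, per the labels' protocols. The deposited values are FPKM with 1 row per gene symbol, made by the authors; the build mm9 and the tools Cufflinks 2.2.1, Bowtie2 2.1.0, TopHat2 2.0.11 and CASAVA 1.8 are listed in the submitters' processing notes. The sources used here do not give gene models, strand, treatment of reads with several matches or depth. Symbols were sorted in byte order and set beside the value rows in file order. As a check, the smallest value above 0 of genes never above 0.3 FPKM, which is about the worth of 1 read, was correlated with transcript length across the 84 solute carrier symbols of this kind: Spearman's rho was -0.31, against -0.16 as deposited and -0.19 to 0.18 at the other shifts of up to 4 rows. Changes are differences in log2(FPKM + 1). No test was run; the calculation was tested on simulated data. Python 3.11.15 was used with pandas 2.3.3, numpy 2.4.6 and scipy 1.17.1.

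The members and lists were chosen with earlier results of these data known. Genes were named by a rule: the 12 most abundant members, those past the size rule against control, the 6 largest growth changes in each direction past it, the leading members of each role, carriers known in oocytes, those next to the threshold, and list genes past the rule or among the 5 most abundant. Slc7a7, Slc7a14, Slc9a3r1, Slc16a10, Slc25a32, Slc35b3, Slc35e4, Slc38a9, those past 0.5 at both stages and those under the mean threshold lie outside it and were chosen after their values were seen. The values of 2 genes that the rule names are not reported here. Alternatives were another pseudocount, other minimums and mean thresholds, rescaled libraries, removal of G and C content and length trends, and symbols as deposited; leaving out the 3 symbols that name no carrier was added after seeing the data. G and C content was found for all 79 members and 99.1% of the genes at the minimum in growing oocytes.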

Additional observations from a re-analysis of the deposited data

Results flagged for a closer look

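In 2 members the deletion change lay on opposite sides of control at the 2 stages and differed by at least 1 on the log2(FPKM + 1) scale; with 1 library per group the difference was not tested. Slc25a28, the mitochondrial iron importer, had a change of 1.06 in fully grown oocytes and -0.14 in growing oocytes, a difference of 1.20. Slc48a1, the heme carrier, had a change of -0.06 in fully grown oocytes and 1.15 in growing oocytes, a difference of -1.20.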

How the results depend on the processing

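With 1 library per group no replicate could be left out, and no depth limit could be set because the files give none. No paired analysis was possible because each group held 1 library and no test was run. The 4 member medians kept their sign under every alternative, but some came closer to 0. With libraries rescaled by the median ratio they were 0.122 and 0.0498 against control in growing and fully grown oocytes and -0.0887 and -0.101 for growth in deletion and control oocytes; the medians of all genes, 0.0186, -0.0211, 0.0189 and 0.0269, then had the opposite sign in the last 3 of these comparisons to that without rescaling. With the trend of G and C content and length removed the member medians were 0.122, 0.0392, -0.139 and -0.0851, beside 0.0904, 0.0456, -0.0656 and -0.0402 over all genes. With a pseudocount of 0.1, 2 members passed the size rule against control in fully grown oocytes (2.56%, against 2.99% of all genes). With a minimum of 20 FPKM, 1 of 36 members passed against control in growing oocytes (2.78%) and 0 of 32 in fully grown oocytes. For growth, 3 of 38 passed in deletion oocytes (7.89%) and 0 of 30 in control oocytes. The shares of all genes were 3.08%, 1.46%, 7.28% and 2.46%. At both stages 29 members reached that minimum. Of these, 19 lay on the same side of control at both stages and 0 differed by 1 or more between stages. With members taken at a mean of 10 FPKM or more, 46 remained. Against control, 1 passed in growing oocytes (2.17%) and 0 in fully grown oocytes, beside 5.13% and 2.17% of all genes at the minimum of 5 FPKM. For growth, 3 passed in deletion oocytes (6.52%) and 1 in control oocytes (2.17%), beside 11.4% and 4.18% of all genes. Of these 46, 28 lay on the same side and 0 differed by 1 or more between stages. With the trend of G and C content and length removed, 3 members passed against control in growing oocytes (3.85%, against 4.15% of all genes), 0 in fully grown oocytes (against 1.84%) and 6 for growth in deletion oocytes (7.59%, against 10.3%). Of the 19 calls of single genes, 10 then stayed past the rule, against 4 with the minimum of 20 FPKM and 17 with rescaled libraries. Taken with symbols as deposited, the list shared 76 of its 79 value rows with the re-paired list under other names, so its medians and counts say nothing of the pairing; 2 members passed for growth in control oocytes, and 10 of the 19 calls changed sign, since the symbols then name other rows. Against control, Slc15a5 then had a growing change of 0.0641, Slc25a13 of 0.24, Slc48a1 of -0.40 and Slc7a2 of 0.0643, and Slc25a28 a fully grown change of -0.0801. For growth of deletion oocytes, Slc25a13 then stood at -0.77, Slc2a1 at 0.27, Slc35e4 at 0.25, Slc48a1 at 0.67 and Slc6a15 at -0.0430. The pseudocount and the absence of a minimum left all 19 calls past the rule, and leaving out the 3 symbols that name no carrier left the counts past the rule at 7, 1, 10 and 1. The cause of these differences was not tested.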

Other observations

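Solute carrier symbols under the mean of 5 FPKM were not members, and 10 of the 16 that reached 5 FPKM in a library passed the size rule in a comparison. A mean under 5 with a library above it favours large differences, so the count is no result; the genes are named after their values were seen. Slc50a1, a sugar carrier of the Golgi and cell membrane, stood at 5.08 FPKM in growing deletion oocytes, against 0.71 FPKM in growing control oocytes, a change of 1.83, and at 1.64 and 1.49 FPKM in fully grown deletion and fully grown control oocytes. Slc16a11, of the monocarboxylate family, stood at 5.25 FPKM in growing deletion oocytes, against 1.54 FPKM in growing control oocytes, a change of 1.30. Slc25a22, a mitochondrial glutamate carrier, stood at 8.20 FPKM in growing deletion oocytes, against 3.08 FPKM in growing control oocytes, a change of 1.17. Slc22a18 stood at 5.66 and 2.08 FPKM in growing deletion and growing control oocytes, a change of 1.11. Slc2a12, a glucose carrier, was the one below control, at 2.17 FPKM in growing deletion oocytes, against 5.36 FPKM in growing control oocytes, a change of -1.01. Slc16a5 stood at 0.588 FPKM in fully grown deletion against 5.69 FPKM in growing deletion oocytes, and at 0.0953 FPKM in fully grown control against 2.74 FPKM in growing control oocytes, with growth changes of -2.07 and -1.77. Slc25a33, Slc25a40, Slc35f5 and Slc38a10 passed the rule for growth in deletion oocytes, with changes of -1.18, -1.16, -1.15 and -1.62. Their growth changes in control oocytes were -0.29, -0.18, -0.33 and -0.63. Slc22a18 and Slc50a1 also passed the rule for growth in deletion oocytes, with changes of -1.36 and -1.20. In control oocytes their growth changes were -0.96 and 0.54.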
